A study of Mus musculus with 6 samples.

Results

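Kainate receptors, delta receptors and NETO proteins were examined through 8 genes: Grik1, Grik2, Grik3, Grik4, Grik5, Grid1, Neto1 and Neto2. These are the rows of the deposited table whose mouse GENCODE symbol is in that list, and all 8 were found among 55416 genes. RNA came from cultured primary neurons of wild-type (WT) mouse brain that had received an adeno-associated viral vector (AAV). For 3 libraries the vector expressed miR-9-3p from the neuronal synapsin promoter (miR-9-3p AAV). For the remaining 3 it was a control vector (control AAV), named scramble in titles and treatment labels but mCherry in the extraction text. Values of a group are given in the order of libraries 1, 2 and 3. The sources used here do not give the brain region, the age of the animals or the days in culture. They also do not say whether replicate libraries are separate cultures or animals, so the p-values reflect library-to-library spread that may be technical only.

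Kainate receptors are glutamate-gated ion channels of 4 subunits that act on both sides of the synapse. GluK1, GluK2 and GluK3, from Grik1, Grik2 and Grik3, can form channels by themselves. GluK4 and GluK5, from Grik4 and Grik5, need a partner from that first set and bind kainate with higher affinity. NETO1 and NETO2 are single-pass membrane proteins that sit beside the channel, slow its closing and change its response to glutamate. The delta receptor GluD1, from Grid1, is built like these channels but works mainly as a synaptic adhesion protein that reaches presynaptic partners through secreted cerebellins.

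A microRNA acts by pairing its seed, bases 2 to 8, with a messenger RNA, most often in the 3′ untranslated region (UTR). Both mature strands of the miR-9 hairpin are shown, since the vector is named for the -3p strand and the labels do not say whether it carries the whole hairpin. They come from RefSeq (GRCm38.p6), with the seed in capitals, and their seeds differ.
mmu-miR-9-3p: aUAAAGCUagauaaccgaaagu
mmu-miR-9-5p: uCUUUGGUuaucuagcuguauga
The complement of the miR-9-3p seed, AGCTTTA, was searched for on the sense strand of each gene's longest annotated 3′ UTR in GENCODE M21. It was found in 1 of the 8 genes, Neto1, starting at base 290 of a 3′ UTR of 5819 bases, and is not followed by an A there. Of 20848 genes with a 3′ UTR of at least 30 bases, 11.4% held the match, and the median length of these 3′ UTRs was 975 bases. The letters were not in the windows of the other 7 genes, which ran from 304 bases in Grik1 to 6275 bases in Grik2.

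The complement of the miR-9-5p seed, ACCAAAG, was in 3 of the 8 genes and in 12.3% of all genes with a 3′ UTR. These sites are shown with the match in capitals because Grik2, Grik3 and Neto2 carry them. The 3′ UTRs of these genes have 6275, 6082 and 3948 bases, where the median over all genes was 975. The counts are not matched for length. The match in Grik2 lies at chr10:49097731-49097737 on the minus strand and that in Grik3 at chr4:125709296-125709302 on the plus strand, and each is followed by an A. Neto2 has 2 on the minus strand, at chr8:85638868-85638874 and chr8:85637909-85637915, and neither is followed by an A.
Grik2 site: tccctgggaacACCAAAGaaacacacata
Grik3 site: ctggaagattaACCAAAGacccaacacag
Neto2 site 1: tgtactttctgACCAAAGtgtgttttctg
Neto2 site 2: attgaacaaaaACCAAAGgatgtttacat
A match describes the letters of the UTR and not binding.

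The whole reads recovered from the steps between low values summed over genes to 16063214 to 17495210 per library. FPKM is a fragment count scaled to gene length and to the library. Some libraries stood apart within their groups, and transcripts of lung cells were in all 6. The median level of 7 alveolar type 2 genes was 3.29, 1.18 and 1 times that of the lowest library under miR-9-3p AAV, against 2.21, 3.33 and 11.4 times under control AAV. Bpifa1, an airway gene, stood at 0.939% of the club cell gene Scgb1a1 in miR-9-3p AAV library 1 and at 0.966% and 0.959% in control AAV libraries 2 and 3. It was listed at 0 in the other miR-9-3p AAV libraries and at 0.029% in control AAV library 1. The first measure is called the lung level and these 2 sets of libraries, with and without Bpifa1, the lung sets. Each set holds 1 library from a group and 2 from the other group, so differences within a set have no replicate check of their own. In the first set genes rich in G and C tended to be low for their group: the deviation from the group mean had a Spearman rho with transcript G+C of -0.58 in miR-9-3p AAV library 1, -0.14 in control AAV library 2 and -0.34 in control AAV library 3, and of 0.39 to 0.52 in the others (14095 genes, which are not independent). Of the neuronal markers Tubb3 reached 527 to 823 FPKM under miR-9-3p AAV and 338 to 707 FPKM under control AAV, and these groups overlapped. Over 10 pan-neuronal markers the median log2 fold change was 0.11, with Nefl at -0.19 and Map2 at 0.65. The glial genes Gfap and Olig1 were present in every library. Gfap stood at 28.7 to 37.6 FPKM under miR-9-3p AAV and 90.9 to 109.6 FPKM under control AAV. Olig1 stood at 83.3 to 156 FPKM and 163 to 279.5 FPKM. Other glial markers went either way, as given below.

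All 8 genes were expressed and passed the filter on low values. Grik5 and Neto2 had the highest levels and Grik4 the lowest. In miR-9-3p AAV the transcripts of Neto1, a kainate receptor auxiliary protein, rose to 1.36 times their control level. Grik2, Grik3 and Grik4 averaged 1.43 to 1.64 times the control without passing the test. Grik5, with the highest mean FPKM, had nearly equal group means and the widest spread between libraries. At a Benjamini-Hochberg adjusted p under 0.05 (limma on log2(FPKM + 1), adjusted over the 14229 genes that reached 1 FPKM in 3 or more libraries), 1 of 8 was higher and 0 were lower, where 3.89% of all genes tested were higher and 2.4% lower. Under other settings described below between 0 and 4 of the 8 were higher. Values did not overlap between the groups for 4 of the 8, all higher in miR-9-3p AAV, where 18.2% of all genes tested were higher and 16.7% lower without overlap. The median log2 fold change was 0.33 over the 8 and -0.02 over all genes tested. RNA was read from whole cultures, so more cells of a type and more RNA per cell cannot be told apart.

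**Figure D1:**
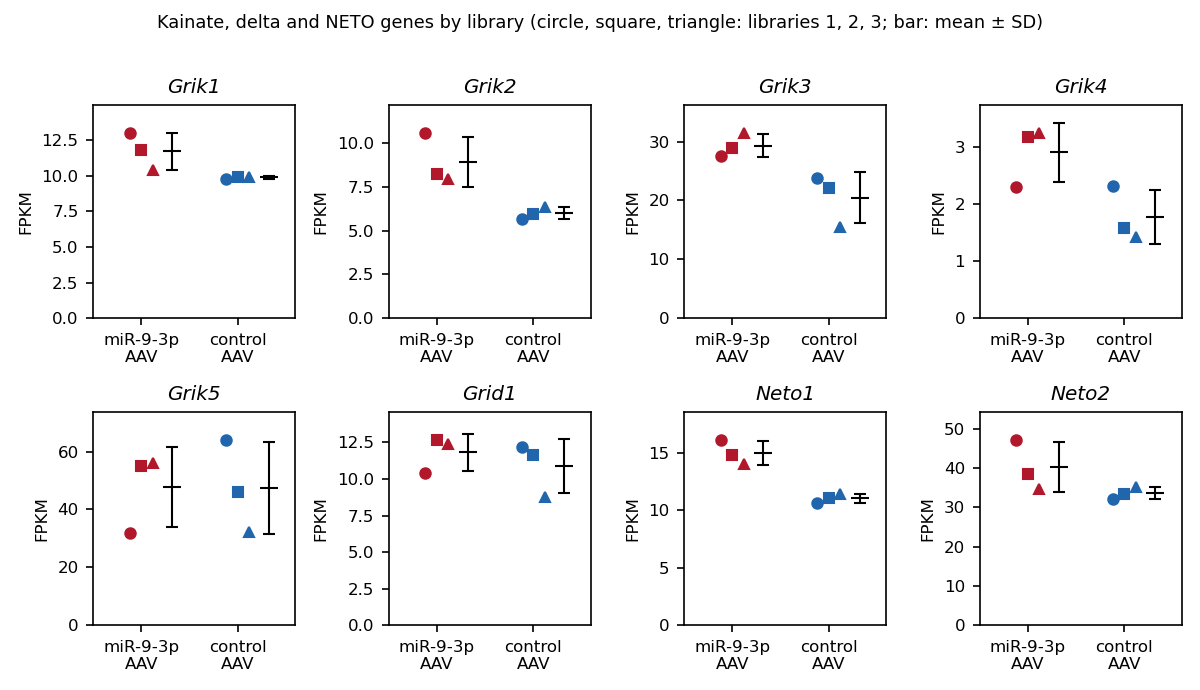
FPKM of each gene (y axis, from 0) in the 3 miR-9-3p AAV libraries (red, left) and the 3 control AAV libraries (blue, right), with the mean and SD as a black bar. Grik1, Grik2, Grik3 and Neto1 show no overlap between the groups, and Grik5 has its lowest values in miR-9-3p AAV library 1 and control AAV library 3.

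The principal subunit gene Grik2 (ENSMUSG00000056073, GRCm38 chromosome 10, 49094833 to 49788766, minus strand) stood at 10.6, 8.22 and 7.95 FPKM under miR-9-3p AAV and at 5.66, 5.97 and 6.38 FPKM under control AAV. Each miR-9-3p AAV library was above each control, and library 1 was the highest. The means were 8.92 ± 1.45 FPKM under miR-9-3p AAV and 6.004 ± 0.359 FPKM under control AAV (SD, n = 3 each). The log2 fold change was 0.49 (standard error, SE, 0.12; 95% interval 0.20 to 0.79), with a limma adjusted p of 0.0639. Within the set that holds Bpifa1 the log2 difference was 0.69 (1 miR-9-3p AAV library against 2 controls), and within the other set it was 0.45 (2 against 1). Among 17 alternative fits, the replicate block and most fits with 1 library left out called 0 of all genes tested. Grik2 passed in 5 of the 17. Its limma adjusted p was 0.0112 with the trend of each library on G+C removed, 0.0092 with the lung level in the model, 0.0182 with the lung set in the model, 0.0412 without the library of highest lung level in each group and 0.0492 with voom on the recovered reads. The counts behind it ran from 1200 to 2407 reads.

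Grik3 (ENSMUSG00000001985, chromosome 4, 125490700 to 125714173, plus strand) encodes a principal subunit with low sensitivity to glutamate. Its levels were 27.5, 28.9 and 31.5 FPKM under miR-9-3p AAV, against 23.7, 22.1 and 15.5 FPKM under control AAV. The groups did not overlap, and control AAV library 3 lay well below the other controls. Grik3 averaged 29.3 ± 2.002 FPKM under miR-9-3p AAV and 20.5 ± 4.35 FPKM under control AAV (SD, n = 3 each), a log2 fold change of 0.52 (95% interval 0.12 to 0.91, SE 0.16, limma adjusted p = 0.11). The difference shrank to a log2 value of 0.34 without control AAV library 3 and to 0.23 with the lung level in the model, where the limma adjusted p was 0.134. With the G+C trend removed it was 0.56, and Grik3 then passed (limma adjusted p = 0.0253). Within the sets with and without Bpifa1 the log2 differences were 0.54 and 0.33.

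Grik1 (ENSMUSG00000022935, chromosome 16, 87895900 to 88290265, minus strand), a principal subunit gene known in cortex and hippocampus for its use by interneurons, was the steadiest gene of the controls. It had 13.0, 11.8 and 10.4 FPKM under miR-9-3p AAV and 9.79, 9.94 and 9.92 FPKM under control AAV. The groups did not overlap, but the lowest miR-9-3p AAV library was close to the controls. Their log2 fold change was 0.22 (95% interval -0.02 to 0.46, SE 0.10, limma adjusted p = 0.21). Grik1 stayed above an adjusted p of 0.05 in all 17 alternative fits, with log2 fold changes of 0.15 to 0.30. Of 10 GABAergic neuron markers 0 were higher and 0 lower, with a median log2 fold change of -0.02. Their summed level was 348 to 504 FPKM under miR-9-3p AAV and 347 to 584 FPKM under control AAV, and none of them was at 0. The part of these cells in the Grik1 values was not tested.

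The obligate partner genes Grik4 and Grik5 differed in level and in pattern. Grik4 (ENSMUSG00000032017, chromosome 9, 42518135 to 42944493, minus strand) had 2.31, 3.17 and 3.24 FPKM under miR-9-3p AAV and 2.32, 1.58 and 1.43 FPKM under control AAV. The groups met at miR-9-3p AAV library 1 and control AAV library 1, and the remaining libraries were apart. The log2 fold change was 0.50 on the log2(FPKM + 1) scale (SE 0.17, 95% interval 0.10 to 0.90, limma adjusted p = 0.123), which understates changes of a gene this low. With voom on the recovered reads, which adds no pseudocount of 1 FPKM, it was 0.73 (limma adjusted p = 0.093). It passed with the G+C trend removed (0.51, limma adjusted p = 0.0458) and with the lung set in the model (0.37, limma adjusted p = 0.0469). Grik4 rested on 151 to 328 reads per library, the fewest of the 8.

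Grik5 (ENSMUSG00000003378, chromosome 7, 25009849 to 25072346, minus strand) was at 31.7, 55.1 and 56.1 FPKM under miR-9-3p AAV, against 64.1, 46.2 and 32.2 FPKM under control AAV. The groups overlapped over nearly their whole range, since miR-9-3p AAV library 1 and control AAV library 3 were almost equal at the low end. Means were 47.6 ± 13.8 FPKM under miR-9-3p AAV and 47.5 ± 16.0 FPKM under control AAV (SD, n = 3 each). The log2 fold change was 0.01 (SE 0.31, limma adjusted p = 0.984), and its 95% interval of -0.74 to 0.77 leaves room for a sizeable difference in either direction. Within the set that holds Bpifa1 the log2 difference was -0.28, and within the other set it was -0.20. With the lung level in the model Grik5 was lower in miR-9-3p AAV by a log2 value of -0.61 (limma adjusted p = 0.0135), and with the G+C trend removed the value was 0.03 (limma adjusted p = 0.888). No direction holds for Grik5 across these fits.

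The delta receptor gene Grid1 (ENSMUSG00000041078, chromosome 14, 34820108 to 35583379, plus strand) stood at 10.4, 12.7 and 12.4 FPKM under miR-9-3p AAV and at 12.2, 11.7 and 8.76 FPKM under control AAV. As with Grik5, the lowest library of each group was miR-9-3p AAV library 1 and control AAV library 3, and the groups overlapped. A log2 fold change of 0.12 was fitted (SE 0.15, 95% interval -0.23 to 0.47, limma adjusted p = 0.628). It turned to -0.02 without control AAV library 3 and to -0.14 with the lung level in the model. Within either lung set it was 0.04.

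Neto1 (ENSMUSG00000050321, chromosome 18, 86394952 to 86506718, plus strand) encodes an auxiliary protein of kainate receptors that also associates with NMDA receptors. The miR-9-3p match in its 3′ UTR lies at chr18:86501189-86501195 of the same build and strand. The gene stood at 16.1, 14.8 and 14.0 FPKM under miR-9-3p AAV and at 10.6, 11.1 and 11.4 FPKM under control AAV. All of the miR-9-3p AAV values lay above all of the controls, and the spread within each group was small. Neto1 averaged 15.0 ± 1.04 FPKM under miR-9-3p AAV and 11.02 ± 0.364 FPKM under control AAV (SD, n = 3 each). The log2 fold change was 0.41 (SE 0.08, 95% interval 0.21 to 0.61), with a limma adjusted p of 0.0438. Within the set that holds Bpifa1 the log2 difference was 0.49 and within the other 0.41. Its log2 fold change stayed between 0.30 and 0.49 in 17 alternative fits, and it passed in 7 of them. Those 7 include median-of-ratios size factors, which were equal in all 6 libraries and so repeat the reported fit. The call was lost when any 1 library was left out: the limma adjusted p was 0.102, 0.163 and 0.135 without miR-9-3p AAV libraries 1, 2 and 3, and 0.12, 0.146 and 0.058 without control AAV libraries 1, 2 and 3. Of all genes tested, 0 passed in these fits except without control AAV library 3, where 459 were higher and 287 lower. In the fits where 0 passed the loss is thus not particular to Neto1. Without control AAV library 3 Neto1 lost its call while most calls over all genes remained. Other fits that ended the call include quantile normalization (0.0532), no filter (0.0801) and the exon length trend removed (0.0836). With quantile normalization 591 of all genes tested were higher and 266 lower.

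Its relative Neto2 (ENSMUSG00000036902, chromosome 8, 85636588 to 85700924, minus strand) was at 47.2, 38.5 and 34.8 FPKM under miR-9-3p AAV, against 32.2, 33.4 and 35.2 FPKM under control AAV. The groups overlapped only by miR-9-3p AAV library 3, which lay below control AAV library 3. Between the group means it was higher by a log2 value of 0.24 (SE 0.13, 95% interval -0.06 to 0.55, limma adjusted p = 0.266). Neto2 passed in 1 of 17 alternative fits, that with the lung level in the model (0.41, limma adjusted p = 0.0323). Other annotated genes covered between 0% and 2.6% of the exon bases of the 8 genes, the most being an antisense gene over Neto1, and the sources used here do not give the strand setting of the counting.

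**Figure D2:**
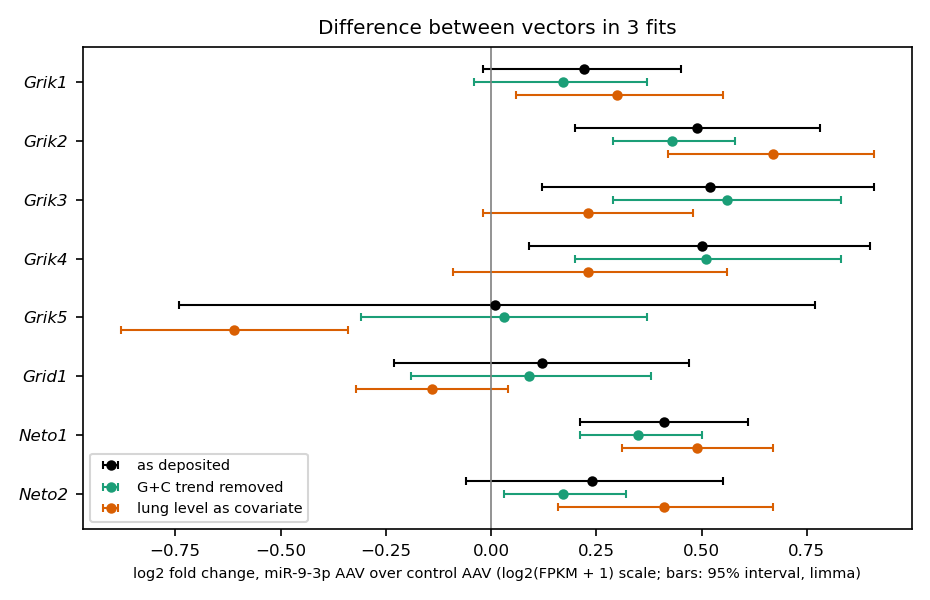
Log2 fold change of miR-9-3p AAV over control AAV (x axis, log2(FPKM + 1) scale) for each gene, with 95% limma intervals, in the fit on the deposited values (black), with each library's G+C trend removed (green) and with the lung level in the model (orange). The whole intervals of Grik2 and Neto1 lie above 0 in all 3 fits, and Grik5 moves between 0.01, 0.03 and -0.61. Fold changes of Grik1, Grik3, Grik4 and Neto2 are also above 0 in all 3 fits, but not all of their intervals are.

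FPKM is scaled to length, so levels can be set beside each other, with limits. The length used takes in all annotated exons, from 5168 bases in Grik5 to 13246 in Grik2, and the transcripts present were not determined. The levels are also not corrected for G+C. Over the 6 libraries the mean levels were 47.5 FPKM for Grik5, 36.9 for Neto2, 24.9 for Grik3, 13.0 for Neto1, 11.4 for Grid1, 10.8 for Grik1, 7.46 for Grik2 and 2.34 for Grik4. The libraries of Grik5 and Neto2 overlapped in both groups, so their order is not resolved by these values. Grid1 and Grik1 likewise overlapped in both groups. Neto1 and Grid1 overlapped in control AAV only, and Grik1 and Grik2 in miR-9-3p AAV only. The remaining neighbours in this order were apart in both groups.

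Differences between libraries of a group ran along base composition. Transcript G+C was 36.5% for Neto2, 37.9% for Grik2, 39.6% for Neto1, 47.9% for Grik1, 49.9% for Grid1, 52.2% for Grik4, 54.2% for Grik3 and 61.7% for Grik5, in each case for the longest transcript. Against the mean of miR-9-3p AAV libraries 2 and 3, library 1 was higher by 0.36 (log2) for Neto2, 0.35 for Grik2, 0.22 for Grik1 and 0.15 for Neto1. In the same library Grik3 differed by -0.13, Grid1 by -0.25, Grik4 by -0.35 and Grik5 by -0.79. Control AAV library 3 differed from the mean of libraries 1 and 2 by 0.10 for Neto2, 0.11 for Grik2, 0.06 for Neto1 and 0.01 for Grik1, and by -0.41 for Grid1, -0.27 for Grik4, -0.53 for Grik3 and -0.74 for Grik5. The 4 genes with the lowest G+C were thus at or above their group in these libraries and the 4 with the highest were below it. Spearman rho of these differences with G+C was -0.90 and -0.95 over the 8 genes, and -0.58 and -0.34 over the 14095 tested genes with a G+C value, which share the libraries and are not independent.

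**Figure D3:**
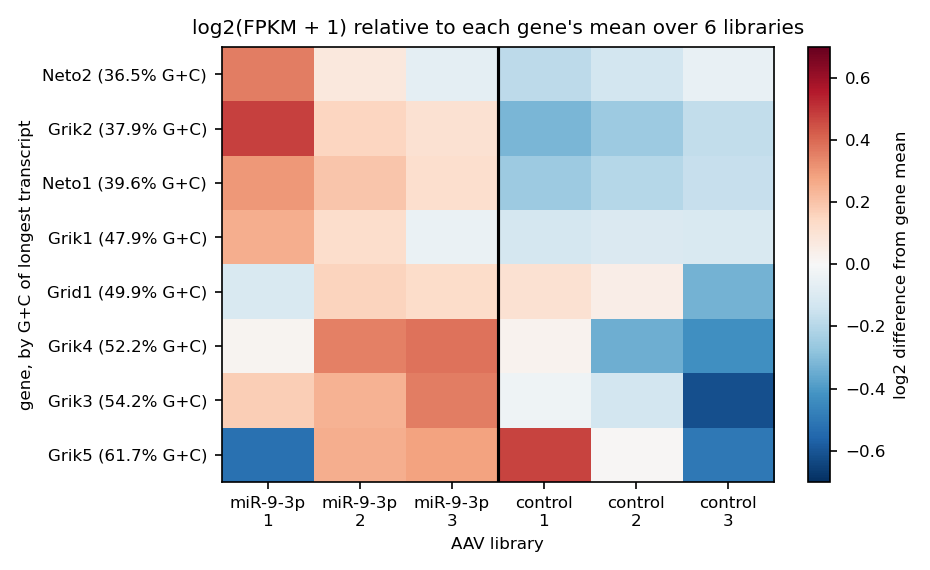
Level of each gene in each library (colour, log2(FPKM + 1) minus the gene's mean over 6 libraries), with the genes ordered from low to high transcript G+C down the page and miR-9-3p AAV left of control AAV. Neto2, Grik2, Neto1 and Grik1 are highest in miR-9-3p AAV library 1, while Grik5 is lowest in that library and in control AAV library 3.

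With the G+C trend of each library removed, an alternative added with these data in view, 4 of the 8 genes were higher in miR-9-3p AAV and 0 lower, namely Grik2, Grik3, Grik4 and Neto1. In that fit 8.96% of all genes tested were higher and 7.27% lower. With the lung level in the model Grik2, Neto1 and Neto2 were higher and Grik5 lower, where 13.1% of all genes tested were higher and 17% lower. With the lung set in the model Grik2, Grik4 and Neto1 were higher, where 9.91% of all genes were higher and 8.74% lower. Without the library of highest lung level in each group, Grik2 and Neto1 were higher, against 5.53% of all genes higher and 5.99% lower. Grik2 and Neto1 also passed with voom on the recovered reads, where 4.86% of all genes were higher and 2.84% lower. In the other 12 alternative fits Grik2 did not pass.

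Ratios within a library do not change with the scaling between libraries, but these were not corrected for the trend on G+C. Grik4 made up 2.71%, 2.96% and 2.97% of the summed FPKM of Grik1 to Grik5 under miR-9-3p AAV, against 2.19%, 1.84% and 2.18% under control AAV. Grik3 made up 32.3%, 27.0% and 28.8% in miR-9-3p AAV and 22.5%, 25.8% and 23.8% in control AAV. These shares did not overlap between the groups. The log2 differences were 0.48 for the Grik4 share and 0.29 for the Grik3 share, each with a two-sided exact permutation p of 0.1, the smallest that 3 against 3 libraries can give, and 0.267 adjusted over the 8 ratios computed.

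Grik5 accounted for 37.2%, 51.4% and 51.4% of the kainate subunit FPKM under miR-9-3p AAV and for 60.7%, 53.8% and 49.2% under control AAV, so it was the largest component in each library. The ratio of partner subunits (Grik4 and Grik5) to principal subunits (Grik1, Grik2 and Grik3) was 0.665, 1.19 and 1.19 in miR-9-3p AAV and 1.69, 1.26 and 1.06 in control AAV. These groups overlapped, with an exact permutation p of 0.4 for the ratio and 0.3 for the Grik5 share (two-sided). Neto1 stood at 0.341, 0.385 and 0.404 of Neto2 in miR-9-3p AAV and at 0.331, 0.331 and 0.323 in control AAV, with no overlap and an exact permutation p of 0.1 (0.267 adjusted over the 8 ratios). The summed Neto level relative to the summed Grik level overlapped between the groups (exact permutation p = 0.8), as did the Grik1 share (1) and the Grik2 share (0.4).

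**Figure D4:**
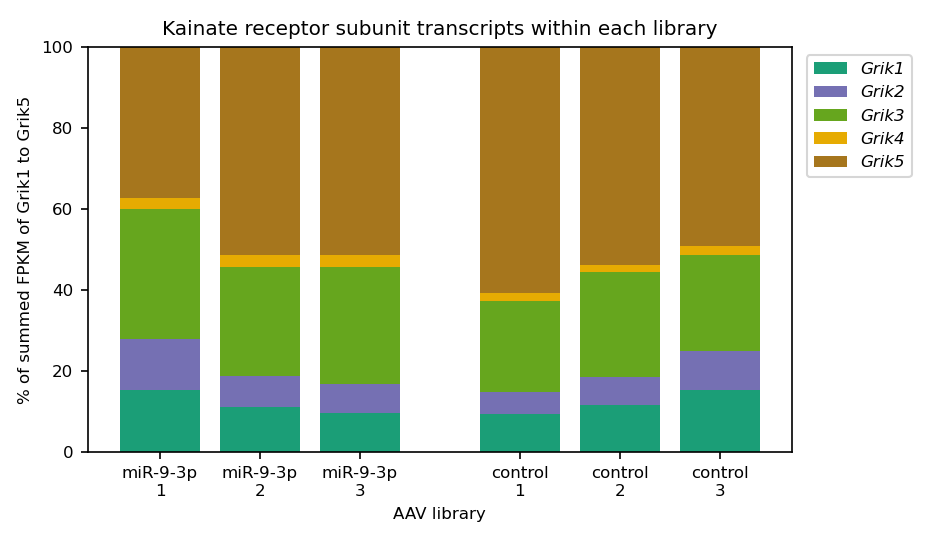
Share of each subunit in the summed FPKM of Grik1 to Grik5 (y axis, percent) in each miR-9-3p AAV library (left) and control AAV library (right). Grik5 is the largest part of each bar, from 37.2% in miR-9-3p AAV library 1 to 60.7% in control AAV library 1, and Grik4 the smallest.

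Partners of these receptors were read from lists. Of 16 tested genes for kainate receptor scaffolds, transport and binding partners, 1 was higher and 0 were lower, with a median log2 fold change of 0.19, and 7 had an unadjusted limma p under 0.05, where 3820 of all 14229 genes tested did. That gene was Cask, a synaptic scaffold of the MAGUK family, with 26.3, 24.7 and 24.2 FPKM under miR-9-3p AAV and 17.7, 19.3 and 19.3 FPKM under control AAV. The groups did not overlap, and Cask was higher by a log2 value of 0.40 (SE 0.08, limma adjusted p = 0.0438). Of 11 tested genes around the delta receptors, 0 were higher and 0 lower at an adjusted p under 0.05, with a median of 0.36, and 6 had an unadjusted limma p under 0.05, again against 3820 of 14229. Among them Gopc, a Golgi trafficking protein, had a log2 fold change of 0.32 (limma adjusted p = 0.0541).

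Among the AMPA and NMDA receptor subunits, the other ionotropic glutamate receptors, 3 of 9 tested genes were higher and 0 lower, with a median of 0.38. Over all genes tested 3.89% were higher and 2.4% lower. Of these 9 subunits 7 had an unadjusted limma p under 0.05, against 3820 of 14229 genes. Grin3a, an NMDA receptor subunit of young neurons, had 5.85, 7.09 and 6.47 FPKM under miR-9-3p AAV and 4.52, 4.62 and 4.08 FPKM under control AAV (0.46 higher on the log2 scale, SE 0.10, limma adjusted p = 0.046). Grin2b and the AMPA subunit gene Gria1 had log2 fold changes of 0.86 and 0.59 (limma adjusted p = 0.0212 and 0.0407). Of the 3 adenosine deaminase genes, which include the editors of the kainate receptor pore codon, 0 were higher and 0 lower (median 0.08), and 1 had an unadjusted limma p under 0.05, where 3820 of 14229 did over all genes. Adarb1, the main editor of such codons, stood at 10.4, 11.6 and 12.2 FPKM under miR-9-3p AAV and at 8.77, 7.75 and 7.09 FPKM under control AAV. Its groups did not overlap, and it fell just short of the threshold with a log2 fold change of 0.48 (limma adjusted p = 0.0505). Adarb2 differed by 0.08 (limma adjusted p = 0.639).

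The genes whose pattern over the 6 libraries was most like that of Grik5 were Pcbp4, BC037034 and Abhd8, by the largest absolute difference of centred log2 values, which was 0.043, 0.049 and 0.051. Their transcript G+C was 61.7%, 58.2% and 53.1%. Pcbp4, an RNA-binding protein gene, had 24.4, 41.2 and 42.2 FPKM under miR-9-3p AAV and 48.9, 36.7 and 25.5 FPKM under control AAV, the same low libraries as Grik5.

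Markers of several cell types were summed in the same libraries. Over all genes tested 3.89% were higher and 2.4% lower, and 3820 of 14229 had an unadjusted limma p under 0.05. Of 8 astrocyte markers 0 were higher and 1, the astrocyte filament gene Gfap, was lower (-1.55, limma adjusted p = 0.017). The median log2 fold change of the 8 was -0.40, and 6 had an unadjusted limma p under 0.05. Slc1a3 and Slc1a2 went the other way, by 0.13 and 0.21. The astrocyte markers summed to 299 to 323 FPKM under miR-9-3p AAV and 406 to 471 FPKM under control AAV. Among 8 markers of the oligodendrocyte lineage 1 (the progenitor receptor Pdgfra) was higher and 1 lower, with a median of -0.21. Of these 8 markers 6 had an unadjusted limma p under 0.05. Their sum was 193 to 295 FPKM under miR-9-3p AAV and 295 to 471 FPKM under control AAV. Of 10 pan-neuronal markers 1, the dendritic protein gene Map2, was higher and 0 lower (median 0.11). They summed to 1164 to 1514 FPKM under miR-9-3p AAV and 818 to 1382 FPKM under control AAV. Of 6 glutamatergic markers 0 were higher and 0 lower (median 0.30), with sums of 121 to 140 FPKM under miR-9-3p AAV and 80.6 to 132 FPKM under control AAV. The 10 lung markers summed to 1644 to 6694 FPKM under miR-9-3p AAV and 4727 to 22440 FPKM under control AAV. Of these 0 of 10 were higher or lower, with a median of -1.48. The 7 microglia markers summed to 2.13 to 5.48 FPKM under miR-9-3p AAV and 4.71 to 18.1 FPKM under control AAV. Of these 2 were tested and 0 passed, with a median of -0.80. No marker of any of these lists was at 0 in a library. Their part in the values of the 8 genes was not tested.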

How the data were processed

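Gene expression in 6 libraries was deposited by the authors as FPKM in a single table, per the file headers. The submitters' processing notes name HISAT2, Cufflinks 2.2.1 and mm10 without saying what each was used for. The annotation and strand setting are not given in the sources used here. Median-of-ratios size factors of the deposited values were 1.007 in each library, so the values were already level on that scale. Low values were whole multiples of a step set by exon length, which gave whole reads within 0.01 for 98.05% to 98.14% of values above 0.

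Symbols, positions, exon lengths and 3′ UTRs came from GENCODE M21 (GRCm38). The fit was limma 3.58.1 in R 4.3.3 on log2(FPKM + 1), all 6 libraries, no covariates, empirical Bayes with an intensity trend. Ratios were tested with scipy 1.17.1. The limma fit was tested on simulated reads, which held no lung or G+C differences between libraries.

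The members and lists were chosen with earlier results of these data known. Named are the 8 genes, up to 4 called genes with the largest change per partner list or else the 2 with the lowest p, and the 3 genes most like the member with the highest mean FPKM. Some genes that this rule takes are left out of the text. Alternatives were another pseudocount, no filter, other normalizations, the replicate block, leaving out libraries, lung terms, trends on exon length and G+C, and voom.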

Additional observations from a re-analysis of the deposited data

How the results depend on the processing

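The direction of Grik1, Grik2, Grik3, Grik4, Neto1 and Neto2 held in all 17 alternative fits. The replicate block, no filter and median-of-ratios size factors returned the fold changes of the reported fit, so they could not have changed a direction. With 1 library left out Grik5 ran from -0.23 (without control AAV library 3) to 0.28 (log2), and Grid1 from -0.02 (without the same library) to 0.20. Grik5 turned to -0.61 with the lung level and to -0.24 with the lung set in the model, and Grid1 to -0.14 with the lung level.

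As reported, 1 of the 8 genes was higher and 0 lower, 554 of all genes were higher and 341 lower, and, over the lists of kainate partners, delta partners, AMPA and NMDA subunits and editing enzymes together, 4 listed genes were higher and 0 lower. With no filter 0 of the 8, 109 and 67 of all genes and 1 listed gene passed. Quantile normalization gave 0 of the 8. With the exon length trend removed the counts were 0 of the 8, 277 and 208 of all genes and 2 listed genes. With the G+C trend removed, chosen after seeing the data, they were 4 of the 8, 1275 and 1035 of all genes, and 15 listed genes higher and 2 lower. The lung level gave 3 of the 8 higher and 1 lower, 1868 and 2419 of all genes, and 11 listed genes higher and 2 lower. The lung set gave 3 of the 8, 1410 and 1243 of all genes and 11 listed genes. Leaving out the library of highest lung level in each group gave 2 of the 8 and 853 genes lower. Voom gave 2 of the 8 and 7 listed genes. With 1 library left out, 0 of the 8 and 0 to 2 listed genes passed, and counts over all genes were 0 to 459 higher and 0 to 287 lower, above 0 only without control AAV library 3. Over the fits with 1 library left out, limma gave 2739 to 4016 genes at an unadjusted p under 0.05.

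With the replicate block limma gave 0 in each of these counts, with 2213 genes at an unadjusted p under 0.05 and a limma adjusted p of 0.275 for Neto1. Deviations of same-numbered libraries correlated at -0.649, 0.111 and -0.535, and miR-9-3p AAV library 1 correlated best with control AAV library 3 (0.621). These values give no sign that the numbers pair the libraries, and the sources used here do not say whether they do.

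The Grik1 share (-0.01) ran from -0.20 to 0.17 with 1 library left out, and the summed Neto over Grik ratio (0.05) from -0.17 to 0.26, or -0.01 on reads not divided by length. The cause of these shifts was not tested. Depth limits Grik4 most.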
